A study of Rattus norvegicus with 12 samples.

Results

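Uromodulin (Umod), tissue kallikrein (Klk1), the potassium channel subunits Kcnj1 and Kcnj10, and barttin (Bsnd) were followed in the renal cortex of rats given cisplatin or water. All probes whose transcript maps to these 5 genes in RefSeq were taken, which gave 9 probes among 61537, and 5 genes among 15645 named genes. The samples were total RNA from 12 male Sprague-Dawley rats, bought at 5 weeks of age, with 1 array per animal. The 4 groups of 3 animals were gavage water, gavage cisplatin at 3.75 mg/kg/day, intravenous water, and intravenous cisplatin at 0.75 mg/kg/day, each for 4 weeks. The intravenous dose is the one on each sample's own label, because the treatment text shared by all samples gives the gavage dose. Route, dose and experiment therefore changed together. Cisplatin, an anticancer agent containing platinum, damages DNA and is toxic to kidney tubules. The study's stated purpose was the comparison of a control with a cisplatin group.

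The 5 genes mark the nephron beyond the loop's turn. The thick ascending limb reabsorbs sodium, potassium and chloride and secretes uromodulin, the most abundant protein of normal urine. There, Kcnj1 encodes the apical channel ROMK that returns potassium to the lumen, and Bsnd encodes the barttin subunit that basolateral chloride channels need. Kcnj10 encodes a basolateral potassium channel of the distal convoluted tubule, and Klk1 encodes the kinin-releasing protease made by the connecting tubule.

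Uromodulin's gene lies on chromosome 1 beside Gp2, which encodes a related zona pellucida domain protein, in RefSeq GRCr8. The start regions of this pair and of Kcnj1 are shown because Umod and its neighbour Gp2 fell together and Kcnj1 is a gene of the same segment as Umod. Each window runs from 250 bases before to 50 bases after the annotated start, on the strand of the gene, and capitals mark TATAAA and GCCNNNGGC (AP-2).
Umod, chr1:183260967-183261266, minus strand: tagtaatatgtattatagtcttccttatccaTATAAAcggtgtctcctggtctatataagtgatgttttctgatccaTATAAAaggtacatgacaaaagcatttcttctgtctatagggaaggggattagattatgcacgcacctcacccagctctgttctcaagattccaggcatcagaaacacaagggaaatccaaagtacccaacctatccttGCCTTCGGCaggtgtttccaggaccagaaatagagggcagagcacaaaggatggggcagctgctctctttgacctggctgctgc
Gp2, chr1:183243905-183244204, minus strand: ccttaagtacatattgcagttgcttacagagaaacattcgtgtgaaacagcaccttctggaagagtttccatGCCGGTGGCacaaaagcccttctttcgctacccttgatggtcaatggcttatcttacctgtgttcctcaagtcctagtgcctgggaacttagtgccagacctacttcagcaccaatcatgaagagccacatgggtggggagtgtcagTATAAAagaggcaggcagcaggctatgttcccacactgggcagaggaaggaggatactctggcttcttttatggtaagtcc
Kcnj1, chr8:39037742-39038041, plus strand: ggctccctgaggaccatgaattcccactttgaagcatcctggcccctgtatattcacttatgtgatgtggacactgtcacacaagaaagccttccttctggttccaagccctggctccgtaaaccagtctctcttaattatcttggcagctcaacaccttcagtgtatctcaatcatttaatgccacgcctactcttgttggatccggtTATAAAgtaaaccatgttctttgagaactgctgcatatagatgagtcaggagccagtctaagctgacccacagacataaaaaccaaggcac
The TATAAA motif began 31 bases before the start in Gp2 and 41 bases before the Kcnj1 start that is printed. In Umod TATAAA began 219 and 173 bases before the start, while GCCNNNGGC began at 34 bases before it. Kcnj1 has a further annotated start, whose window (chr8:39061391-39061690) held neither of these motifs and is not printed. The windows of Klk1, Bsnd and Kcnj10, also not printed, held no TATAAA. Of these only the Kcnj10 window held GCCNNNGGC, which began 188 and 55 bases before the start. Searched on both strands, TATAAA stood in 14.2% of all 33469 windows of this length and GCCNNNGGC in 15.1%. AAGGTCA (a core of ERR sites), held by 4.61%, was found in the Klk1 window alone among the 6 windows of the 5 genes and that of Gp2. No capital of one motif overlapped another. The letters are a description and were not set against binding data.

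All values below are relative signals, that is, the background-subtracted spot intensity as a multiple of the array's own 75th percentile. Changes are differences of mean log2 relative signal, cisplatin minus water, with the standard error of a limma fit over all 12 arrays (n = 3 per group). A feature was called at a Benjamini-Hochberg adjusted p under 0.05 over all 32215 features tested. Levels of different probes are not set against each other. The array's 75th percentile lay between 970 and 1055 on the water arrays and between 1387 and 1532 on the cisplatin arrays, and 66.1% to 73.9% of probes were well above background. Cortex markers were present on every water array, with 10 of 10 proximal tubule and 6 of 6 podocyte markers above background. With arrays scaled on 7 spike-in probes instead, cisplatin values moved up by 0.61 relative to water on the log2 scale, so that changes are relative to the chosen scaling.

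**Figure D1:**
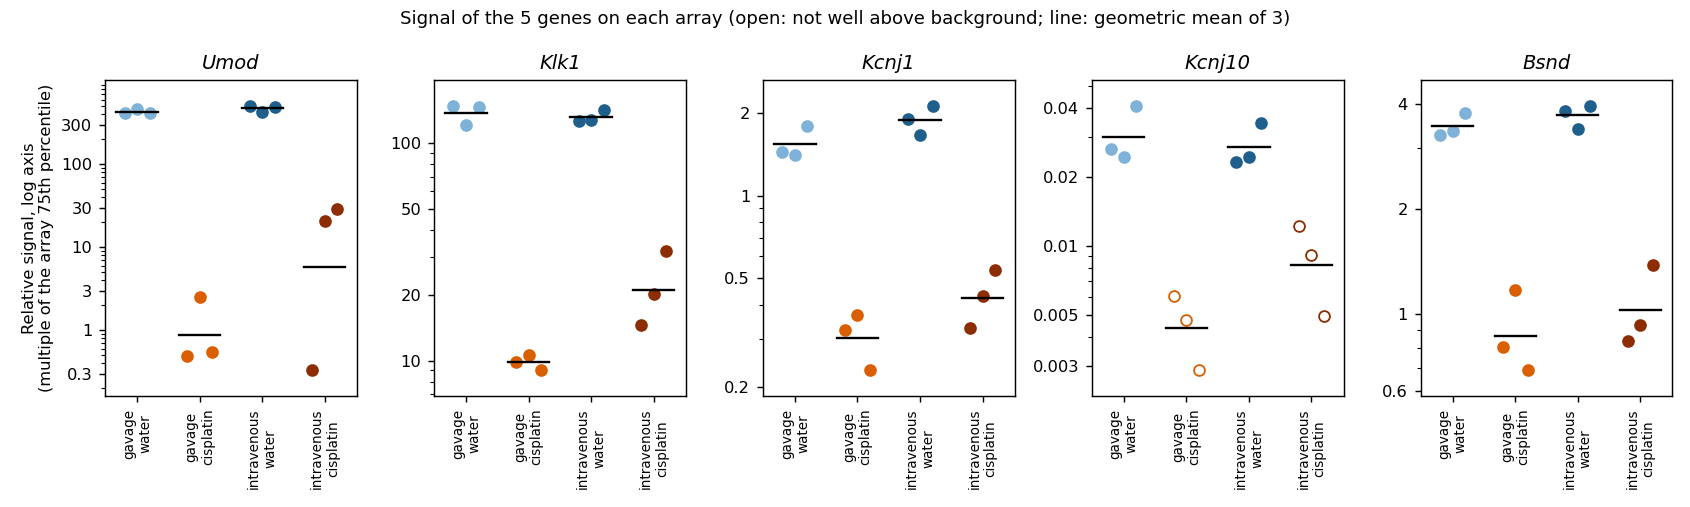
Relative signal (log axis) of the brightest probe of each of the 5 genes on all 12 arrays, in 4 groups of 3. In each panel every cisplatin point lies below every water point, and the share of all features with such separation was not computed. The open Kcnj10 points mark spots that were not well above background.

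Gavage cisplatin lowered the 4 genes that were above background on every array: Umod, Klk1, Kcnj1 and Bsnd fell, with Umod falling the most and Bsnd the least of these. Kcnj10 was measured in the water animals only, has no more than a bound with cisplatin, and is left out of the counts and medians of the members. The 4 of 4 stands beside 30.2% of all features that fell and 29.5% that rose in this comparison. The genes were chosen with earlier results of these data known, so the 4 of 4 is not an independent outcome. Where groups are said below not to overlap, the share of all features with such separation was not computed. The median change was -3.08 over the 4 genes and 0.0013 over all features. With spike-in scaling the 4 genes still fell, with changes between -8.29 (Umod) and -1.33 (Bsnd), while over all features 9.75% fell and 62.3% rose. Since bulk cortex was measured, fewer cells of a segment and less RNA per cell cannot be told apart.

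Umod, on its brighter probe, had relative signals of 419, 461 and 414 on the gavage water arrays. On the gavage cisplatin arrays it had 0.487, 2.51 and 0.546. The groups did not overlap, and the second cisplatin animal kept the highest signal of its group. The change was -8.95 ± 1.39 (log2 ± SE, n = 3 per group, limma adjusted p = 0.000329), a 493-fold decrease that left 0.203% of the water level. The 95% confidence interval ran from -12.0 to -5.85. Without gavage cisplatin replicate 2 the change was -9.71. The other Umod probe gave -8.79 ± 1.37, so both probes of the gene fell by nearly the same amount.

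Klk1 was measured by 1 probe. It had relative signals of 148, 121 and 147 with gavage water and 9.83, 10.6 and 9.08 with gavage cisplatin. The cisplatin animals lay close together and far below the water animals. Klk1 fell by 3.81 ± 0.23 (log2 ± SE, limma adjusted p = 1.28e-06), which left 7.12% of the water level.

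Kcnj1, the gene of the apical channel ROMK, had relative signals of 1.44, 1.40 and 1.80 with gavage water and 0.324, 0.365 and 0.232 with gavage cisplatin. The groups were separate and the spread within each was small. Kcnj1 fell by 2.35 ± 0.21 (5.09-fold, limma adjusted p = 1.04e-05). The other Kcnj1 probe fell by 1.95 ± 0.20.

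Bsnd, the gene of the chloride channel subunit barttin, had relative signals of 3.26, 3.34 and 3.76 with gavage water and 0.805, 1.17 and 0.691 with gavage cisplatin. No cisplatin animal reached the lowest water animal. Bsnd fell by 1.99 ± 0.22 (3.98-fold, limma adjusted p = 3.28e-05) and its other probe by 1.89 ± 0.21.

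Kcnj10, the gene of the basolateral channel, was dim. It had relative signals of 0.0265, 0.0246 and 0.0409 with gavage water and was not well above background on any cisplatin array, where it measured 0.00607, 0.00476 and 0.00288. Measured against the lowest signal above background on each array, the level was at least 2.03-fold lower (limma adjusted p = 0.000120, from a fit in which the cisplatin values lie below background). The bound sets the bright group's mean of log2 values against, on each dim array, the higher of that lowest signal and the probe's own. It holds for the percentile scaling, would be smaller with spike-in scaling, and was not computed with the latter. The other Kcnj10 probe was above background on 0 of 12 arrays and was not tested.

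Of the 9 probes, 8 were tested singly. Every probe of Umod, Klk1, Kcnj1 and Bsnd fell in both experiments. Among all 43900 probes tested singly, 29.9% fell with gavage and 30.6% with intravenous cisplatin.

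Intravenous cisplatin lowered the same 4 genes: each of them fell, and again Umod fell the most. Over all features 32.6% fell and 26.1% rose, and with spike-in scaling 9.57% fell and 53.1% rose. The median over the 4 genes was -2.40 and over all features -0.07. With spike-in scaling the changes of the 4 genes lay between -5.77 (Umod) and -1.30 (Bsnd).

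Umod had relative signals of 503, 424 and 494 with intravenous water and 0.336, 20.6 and 29.3 with intravenous cisplatin. Replicate 1 had the lowest Umod signal of all 12 animals, and the others kept 4.35% and 6.21% of the water mean. The highest cisplatin signal of the group was 87.2 times the lowest, against 1.19 times among its water animals. Umod fell by 6.33 ± 1.39 (80.4-fold, limma adjusted p = 0.00314, 95% confidence interval -9.43 to -3.23). The change was -4.27 without intravenous cisplatin replicate 1, -7.23 without replicate 2 and -7.49 without replicate 3. On the other probe the cisplatin arrays gave 0.331, 18.9 and 27.3, so both probes placed the animals in the same order.

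Klk1 had relative signals of 127, 127 and 142 with intravenous water and 14.6, 20.2 and 32.0 with intravenous cisplatin. All 3 of these cisplatin animals lay above all 3 gavage cisplatin animals and below every water animal. Klk1 fell by 2.64 ± 0.23 (6.23-fold, limma adjusted p = 1.50e-05).

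Kcnj1 had relative signals of 1.91, 1.66 and 2.12 with intravenous water and 0.329, 0.431 and 0.534 with intravenous cisplatin. It fell by 2.16 ± 0.21 (4.46-fold, limma adjusted p = 2.87e-05), with the other probe at -1.53 ± 0.20. The water and cisplatin animals did not overlap.

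Bsnd had relative signals of 3.83, 3.39 and 3.95 with intravenous water and 0.834, 0.927 and 1.39 with intravenous cisplatin. It fell by 1.86 ± 0.22 (3.63-fold, limma adjusted p = 7.57e-05). The groups were again separate, with replicate 3 the highest of the cisplatin animals.

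Kcnj10 measured 0.0233, 0.0246 and 0.0346 with intravenous water and 0.0122, 0.00917 and 0.00495 with intravenous cisplatin, where no spot was well above background. On the percentile scaling the level was at least 1.51-fold lower (limma adjusted p = 0.00273, again with the cisplatin values below background). Spike-in scaling moved cisplatin values up relative to water and would make this bound smaller. The bound was not computed with that scaling, so a fall of this size is not shown there.

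The slides bear differently on the 2 experiments. The gavage groups met on slide 1, where all 3 water animals were hybridised together with the first cisplatin animal. Taking the slide as a fixed block gave gavage changes of -9.79 for Umod, -3.81 for Klk1, -2.24 for Kcnj1 and -2.10 for Bsnd. These equal the values within slide 1, where 1 cisplatin animal stands against 3 water animals and is assumed to vary like the other groups. The 3 intravenous cisplatin arrays filled slide 3 and the 3 intravenous water arrays lay on slide 2, so that slide and group cannot be told apart in that comparison with a fixed block. With the slide as a random block the 4 genes fell there too, with -6.34 for Umod and -2.64 for Klk1.

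**Figure D2:**
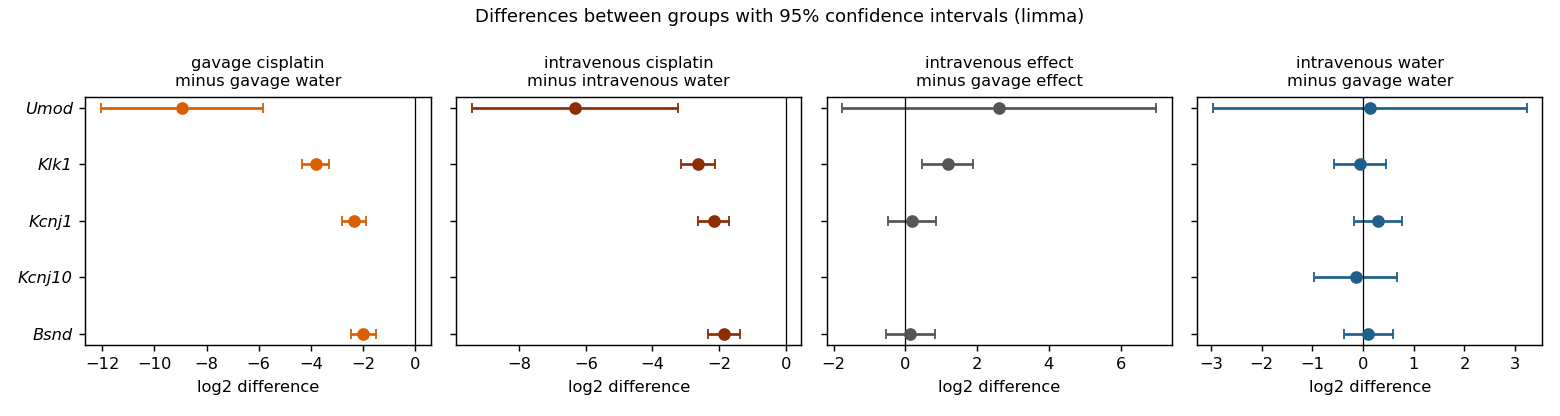
Log2 differences of the 5 genes with 95% confidence intervals in 4 comparisons, 1 per panel, with no point for Kcnj10 where cisplatin values below background enter. The cisplatin intervals lie below 0 for the other 4 genes, and the intervals for the water animals of the experiments span 0.

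Whether the effect differed between the experiments was tested as the intravenous minus the gavage change, in which 1.19% of all features passed. None of the 4 genes above background passed. Umod differed by 2.62 ± 1.97 (limma adjusted p = 0.494), with an interval from -1.76 to 6.99 that holds large differences either way. Klk1 differed by 1.17 ± 0.33 (limma adjusted p = 0.102, unadjusted 0.00470), with an interval from 0.45 to 1.90. Kcnj1 differed by 0.19 ± 0.30 (adjusted p = 0.761) and Bsnd by 0.13 ± 0.31 (adjusted p = 0.841). For Kcnj1 the interval ran from -0.47 to 0.85 and for Bsnd from -0.55 to 0.82. Without intravenous cisplatin replicate 1 the difference passed for Umod (4.68, limma adjusted p = 0.0235) and for Klk1 (1.44, limma adjusted p = 0.0235). Over all features the count of differences was 382 with all arrays, 2445 without gavage cisplatin replicate 1, 2137 without intravenous cisplatin replicate 1, and 0 to 2 without any other array.

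The water animals of the experiments gave the baseline. The gavage water arrays all lay on slide 1 and the intravenous water arrays all on slide 2, so slide and experiment changed together here. Umod differed by 0.13 ± 1.39 between them, Klk1 by -0.07 ± 0.23, Kcnj1 by 0.30 ± 0.21, Kcnj10 by -0.14 ± 0.37 and Bsnd by 0.11 ± 0.22. None of them passed (limma adjusted p = 0.580 to 0.977). Over all features limma called 0 (0%), and 4544 had an unadjusted p under 0.05. Without gavage cisplatin replicate 1 the count was 1096. The Umod interval is wide here although the water animals lay close, with a log2 SD of 0.09 and 0.14, because all groups share 1 estimate of spread and the cisplatin groups had 1.32 and 3.58. In level, intravenous water and gavage water overlapped for each gene, and so did intravenous and gavage cisplatin, except for Klk1.

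Around Umod, Kcnj1 and Bsnd, 11 of 15 tested genes of a thick ascending limb list fell with gavage, 0 rose and 4 did not pass. The list contains those 3 genes, and its median was -2.33. With intravenous cisplatin it was also 11, 0 and 4, with a median of -1.86. With spike-in scaling 9 fell and 1 rose with gavage and 10 fell and 2 rose with intravenous cisplatin, and with normexp or quantile normalization 11 fell and 1 rose in each. The growth factor Egf, whose precursor is made in this segment, fell (log2 changes of -6.48 ± 0.38 with gavage and -5.41 ± 0.38 with intravenous cisplatin, the order of every pair of values given from here on). The calcium-sensing receptor Casr fell (-4.79 ± 0.35 and -3.69 ± 0.35). The phosphatase inhibitor Ppp1r1a fell (-5.72 ± 0.52 and -4.75 ± 0.52), the latter being -4.13 without intravenous cisplatin replicate 1. The membrane protein Tmem52b fell too (-2.33 ± 0.18 and -2.03 ± 0.18).

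Some partners of the 5 genes were named after their values were seen. Slc12a1, the sodium-potassium-chloride cotransporter whose potassium supply ROMK sustains, fell (-2.56 ± 0.47 and -2.26 ± 0.47), the latter being -2.86 without intravenous cisplatin replicate 3. The tight-junction gene Cldn10 fell (-2.33 ± 0.29 and -1.85 ± 0.29), as did Cldn16, of the paracellular magnesium pathway (-1.47 ± 0.33 and -1.68 ± 0.33). In the gavage comparison Cldn16 no longer passed with spike-in scaling (-0.82). Other claudins of the thick ascending limb list did not fall in every cisplatin animal. As log2 values minus the water mean, Cldn19 stood at 0.02, 0.76 and -0.18 with gavage and -0.44, 0.68 and 0.92 with intravenous cisplatin. Cldn14 ran from -4.52 to 1.05 and from -1.09 to 1.93.

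Around Kcnj10, 9 of 10 tested genes of a distal convoluted tubule list fell with gavage and 1 did not pass, with a median of -2.10. The counts with intravenous cisplatin were the same and the median was -1.52. Kcnj10, below background with cisplatin, is among those counted. With spike-in scaling 8 fell with gavage and 6 with intravenous cisplatin (medians -1.44 and -0.97), and Wnk4, a kinase named after its values were seen, rose in each, by 0.61 and 0.97. The calcium buffer Calb1 fell (-2.36 ± 0.25 and -2.03 ± 0.25), as did the magnesium-handling gene Cnnm2 (-1.99 ± 0.16 and -1.33 ± 0.16). Fxyd2, a regulator of the sodium pump, fell (-2.62 ± 0.24 and -1.84 ± 0.24). Slc12a3, the thiazide-sensitive cotransporter, named after its values were seen, fell (-2.21 ± 0.24 and -2.44 ± 0.24). Kcnj16, which forms channels together with Kcnj10, was bright on every array and fell (-1.81 ± 0.26 and -0.94 ± 0.26). With spike-in scaling the intravenous value of Kcnj16 was -0.38 and did not pass.

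Around Klk1, 5 of 7 tested connecting tubule genes fell with gavage, 1 rose and 1 did not pass (median -1.08). With intravenous cisplatin 3 fell, 1 rose and 3 did not pass (median -0.60). With spike-in scaling 3 and 1 fell and 1 rose in each comparison. Slc8a1, the sodium-calcium exchanger, fell (-1.48 ± 0.09 and -0.88 ± 0.09), although with spike-in scaling its intravenous value of -0.32 did not pass. The gene that rose was Trpv5, the apical calcium channel, by 1.71 ± 0.24 and 2.11 ± 0.24.

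Among potassium channels of the tubule, a list that holds Kcnj1 and Kcnj10, 6 of 11 tested genes fell with gavage, 1 rose and 4 did not pass (median -1.81). With intravenous cisplatin 7 fell, 1 rose and 3 did not pass (median -1.27). Kcnj10 is again among those counted. With spike-in scaling 6 fell and 3 rose with gavage (Kcnk1, Kcnj8 and Kcnma1), and 5 fell and 2 rose with intravenous cisplatin (Kcnk1 and Kcnj8). Kcnj8 and Kcnma1 were named after their values were seen. With normexp the gavage median was -1.06 and the intravenous one -0.83, with 2 genes higher in each. Kcnj15 fell (-3.61 ± 0.34 and -2.06 ± 0.34), as did Kcnj13 (-2.16 ± 0.14 and -1.94 ± 0.14). Kcnk1 rose in both comparisons, by 1.66 ± 0.12 and 0.94 ± 0.12.

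Of regulators that act on salt transport in the segments of Kcnj1 and Kcnj10 (the WNK-SPAK pathway and the mineralocorticoid receptor), 8 of 11 fell with gavage, 1 rose and 2 did not pass (median -0.58). With intravenous cisplatin 7 fell, 0 rose and 4 did not pass (median -0.51). These small medians turned with spike-in scaling, to 0.08 with 3 lower and 4 higher and to 0.05 with 2 lower and 3 higher. Wnk1, a kinase whose short kidney form is made in the distal tubule, fell (-1.66 ± 0.11 and -1.62 ± 0.11). Hsd11b2, the enzyme that shields the mineralocorticoid receptor from glucocorticoids, fell (-1.39 ± 0.13 and -0.87 ± 0.13), and the latter did not pass with spike-in scaling (-0.31). The gene that rose with gavage was Oxsr1, a kinase of the WNK pathway, by 0.46 ± 0.12.

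**Figure D3:**
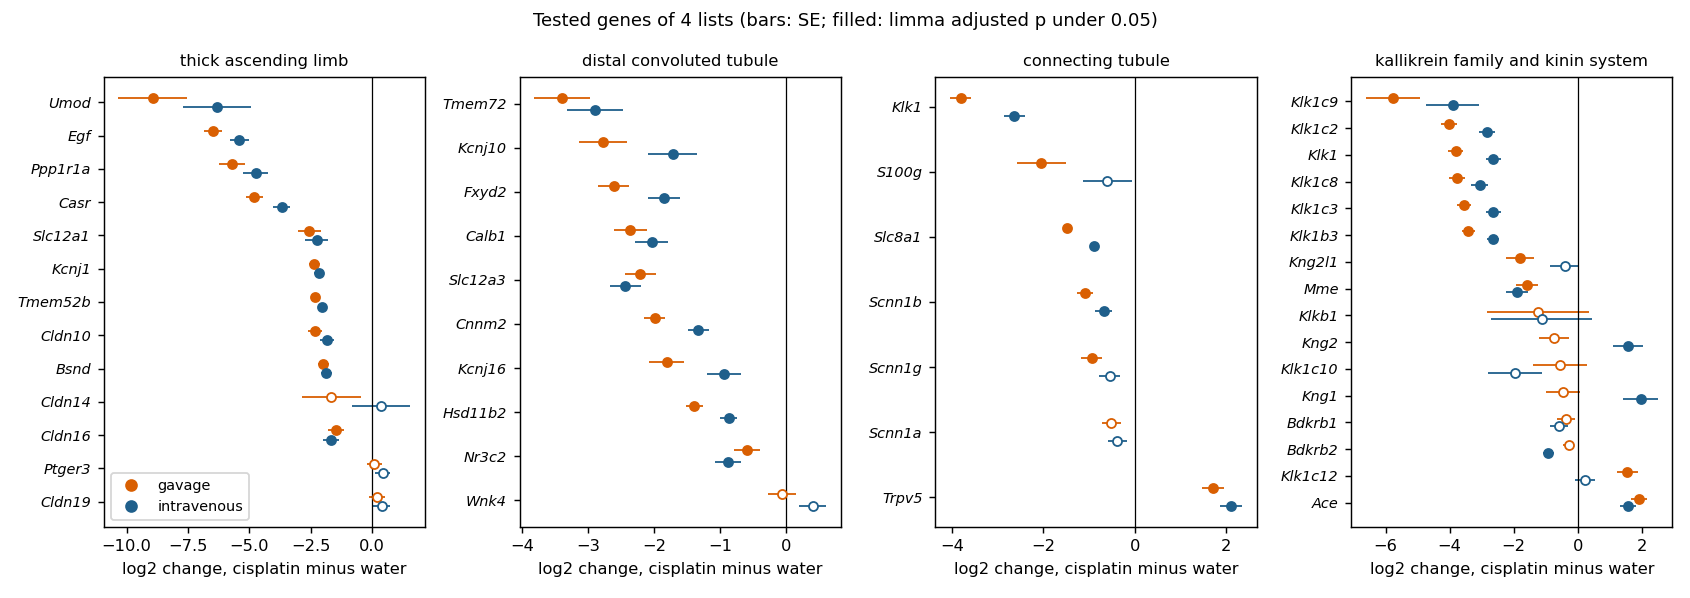
Log2 changes with SE of tested genes of 4 lists, by gavage (orange) and by intravenous cisplatin (blue), with filled points where the limma adjusted p was under 0.05. Kcnj10 stands at its fitted value, though below background with cisplatin. Umod, Egf, Ppp1r1a and Casr lie farthest to the left in the thick ascending limb, and Trpv5 lies to the right of 0 in the connecting tubule.

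The protein that Umod encodes is released by the protease hepsin (Hpn) and polymerises through its zona pellucida domain. In a list of hepsin and zona pellucida relatives 3 of 4 tested genes fell and 1 rose with gavage (median -1.44), and 3 fell and 1 did not pass with intravenous cisplatin (median -1.31). With spike-in scaling 2 fell and 1 rose in each. Hpn fell (-2.10 ± 0.29 and -1.57 ± 0.29). The gene that rose was Oit3, a zona pellucida relative, by 1.18 ± 0.38 with gavage, a call that was lost with normexp (0.41) and without gavage water replicate 2 (1.08) or gavage cisplatin replicate 1 (1.01) or 2 (1.02).

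Gp2, the neighbour of Umod whose start region is printed above, had relative signals of 0.493, 4.48 and 3.60 with gavage water and 2.59, 1.44 and 1.20 with intravenous water. Of the gavage cisplatin animals only replicate 2, at 0.0209, was well above background, and of the intravenous ones replicates 2 and 3, at 0.0860 and 0.0744. The 3 animals below background were those with the lowest Umod signals. Gp2 fell, with changes of -8.43 ± 1.33 (limma adjusted p = 0.000354) and -5.92 ± 1.33 (limma adjusted p = 0.00348), where the values below background enter as measured. Single arrays moved this: the gavage change was -9.44 without water replicate 1 and -9.35 without cisplatin replicate 2. The intravenous change was -4.37 without cisplatin replicate 1, -6.75 without replicate 2 and -6.65 without replicate 3.

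In the kallikrein family and kinin system, which holds Klk1, 8 of 16 tested genes fell with gavage, 2 rose and 6 did not pass (median -1.41). With intravenous cisplatin 8 fell, 3 rose and 5 did not pass (median -1.51). The glandular kallikreins Klk1c2, Klk1c8, Klk1c3 and Klk1b3 fell, with changes of -4.02 ± 0.26, -3.77 ± 0.26, -3.55 ± 0.22 and -3.42 ± 0.20 with gavage. With intravenous cisplatin their changes were -2.83, -3.06, -2.63 and -2.65. These genes and Klk1 are near-identical copies, and a probe of 1 may bind transcripts of another, so their values are uncertain singly. Klk1c12, which was well above background in 1 of 3 gavage water animals, rose by 1.56 ± 0.32 with gavage, a call that was lost with normexp (0.24). Ace, the gene of the enzyme that degrades kinins, rose by 1.93 ± 0.25 and 1.57 ± 0.25. Of the kinin precursors, Kng1 (1.97 ± 0.54) and Kng2 (1.57 ± 0.47) rose with intravenous cisplatin. Kng1 moved to 2.56 without intravenous water replicate 2 and to 1.38 without replicate 3. Kng2 no longer passed without intravenous water replicate 3 (1.20) or without intravenous cisplatin replicate 2 (1.29) or 3 (1.39). With gavage Kng1 and Kng2 were at -0.46 and -0.74 and did not pass.

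Of nephron transcription factors, some of which bind start regions of tubule genes such as Umod, 10 of 18 tested fell with gavage, 1 rose and 7 did not pass (median -0.55). With intravenous cisplatin 13 fell, 2 rose and 3 did not pass (median -0.74). With spike-in scaling 5 fell and 7 rose with gavage (median 0.11), and 5 fell and 5 rose with intravenous cisplatin (median -0.19). Tfcp2l1 fell (-1.35 ± 0.13 in both), and so did Sim1 (-1.25 ± 0.13 and -1.22 ± 0.13) and Lhx1 (-1.43 ± 0.18 and -1.12 ± 0.18). Pax8 rose by 1.14 ± 0.16 and 0.68 ± 0.16. Gata3, a factor of the collecting duct, rose by 0.33 ± 0.12 with intravenous cisplatin. The Gata3 call was lost without intravenous cisplatin replicate 1 (0.21), without intravenous water replicate 1 (0.29) or 2 (0.33), without gavage water replicate 2 or gavage cisplatin replicate 2 (0.33 each), and with the mean of its probes (0.14).

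Markers of other cells moved in the same comparisons as the 5 genes. Of proximal tubule markers 10 of 10 fell with gavage, and their summed relative signal was 2064 to 2406 with water and 139 to 325 with cisplatin. With intravenous cisplatin 9 of 10 fell, from 1908 to 2230 to 254 to 826. All 6 intercalated cell markers fell in each comparison, but 3 and 1 with spike-in scaling and 5 and 3 with quantile normalization, and Slc26a4 rose with intravenous cisplatin under spike-in scaling. Of 5 principal cell markers 2 fell in each and 1, Gata3, rose with intravenous cisplatin. With spike-in scaling 1 fell and 2 rose with gavage, and 0 fell and 1 rose with intravenous cisplatin. Of 6 podocyte markers 4 fell in each comparison, against 0 with spike-in scaling, where 1 and 2 rose. Of 5 endothelial markers 3 and 2 fell, against 1 that fell and 2 that rose in each with spike-in scaling. Of 7 injured tubule markers 6 and 7 rose, with sums of 28.6 to 34.0 on water arrays and 475 to 575 on cisplatin arrays. Of 7 macrophage markers 6 and 5 rose, and 5 of 5 fibroblast markers rose in each comparison. Their sums were 7.83 to 13.1 and 16.5 to 28.7 for macrophages and 10.8 to 18.2 and 46.9 to 97.2 for fibroblasts, on water and on cisplatin arrays. The part of these markers in the falls of the 5 genes was not tested.

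Similarity of profile was measured over the 12 arrays as the root mean square difference between log2 values centred on the water mean of each experiment, among 11655 named genes above background in water animals. For Umod the nearest were the organic anion transporter Slco1a1 (0.74), Gp2 (0.90) and the transporter Slco1a6 (0.98). Each of these had cisplatin spots below background, whose values enter these distances as measured. For Klk1 they were its relatives Klk1c3 (0.15) and Klk1c2 (0.16) and the amino acid transporter Slc6a19 (0.20), which is listed here as a proximal tubule marker. For Kcnj1 they were Calb1 (0.12), Fa2h (0.15) and Slc16a7 (0.16), and for Bsnd they were Rab29 (0.15), Nudt12 (0.15) and Dapl1 (0.16). For Kcnj10, whose cisplatin values lay below background, Timp4 (0.38), Pdp2 (0.41) and Clybl (0.41) came nearest. Among the 5 genes, Kcnj1 and Bsnd lay close to each other (0.26), whereas Umod was 3.45 from Klk1 and 4.37 from Bsnd. Slco1a1 was well above background in 1 of 3 gavage and 2 of 3 intravenous cisplatin animals and Slco1a6 in 2 and 2. The Slco1a1 relative signals were 0.0037, 0.0485 and 0.0031 with gavage cisplatin and 0.0040, 1.15 and 1.04 with intravenous cisplatin, and no water animal lay under 5.18.

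**Figure D4:**
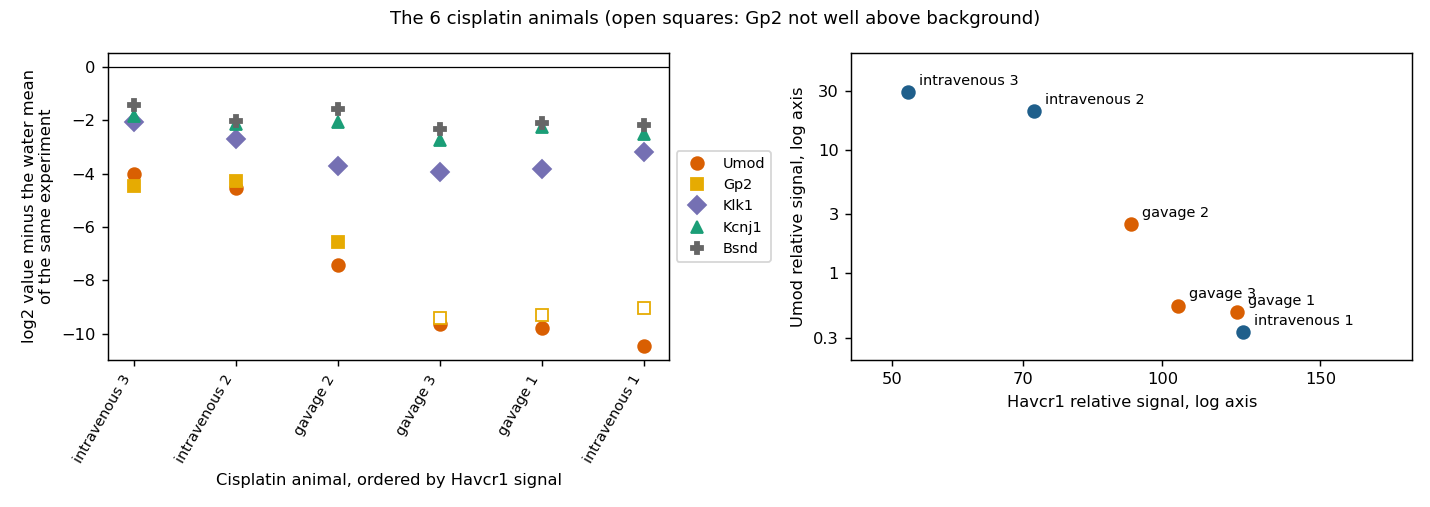
Left, log2 value minus the water mean of the same experiment for Umod, Gp2, Klk1, Kcnj1 and Bsnd in the 6 cisplatin animals, ordered from the lowest to the highest Havcr1 signal. Right, Umod against Havcr1 relative signal (both log axes), where Umod is lower in each animal with more Havcr1, from 29.3 in intravenous replicate 3 to 0.336 in intravenous replicate 1.

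Havcr1 encodes KIM-1, a protein of the injured proximal tubule, and gave an order of the 6 cisplatin animals. It had relative signals of 121, 92.3 and 104 in the gavage animals and of 123, 72.0 and 52.1 in the intravenous animals. Umod had exactly the opposite order over all 6, and so within each experiment. This relation was looked for after the values were seen, and both values of an animal share its array and scaling. Over 6 animals of both experiments, Pearson's r of log2 values was -0.96 (exact permutation p = 0.00139, adjusted over 4 genes 0.00556). Spearman's rho was -1 (exact permutation p = 0.00278, adjusted 0.0111), and these are the smallest p-values that 6 animals can give. All the permutations exchanged animals between the experiments, although route, dose and experiment differed, and so assume that these animals are exchangeable. The adjustment over 4 genes does not cover the choice of Havcr1. Without intravenous replicates 2 and 3, the animals farthest from the Havcr1 median, r was -0.91 over 4 animals. Of 32193 other features 52, or 0.162%, also had a rho of -1 to Havcr1, and 181, or 0.562%, had a rho of 1. With 3 animals in each experiment no correlation was computed within one.

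Kcnj10, below background in all 6 animals, was not set against Havcr1. For Klk1 r was -0.85 (exact permutation p = 0.0333, adjusted 0.0667) and rho -0.60 (exact permutation p = 0.242, adjusted 0.242), and r was 0.44 without the same 2 animals. For Kcnj1 r was -0.80 (exact permutation p = 0.0542, adjusted 0.0722) and rho -0.77 (p = 0.103, adjusted 0.181), with -0.02 without the 2 animals. For Bsnd r was -0.77 (exact permutation p = 0.0764, adjusted 0.0764) and rho -0.71 (p = 0.136, adjusted 0.181), with -0.57 without them. Leaving out these animals narrows the Havcr1 range to 92.3 to 123, and the part of this in a weaker r was not tested. For Klk1 and Kcnj1 the relation did not hold without them.

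Single animals kept similar places across genes. The 4 genes above background on all arrays were Umod, Klk1, Kcnj1 and Bsnd. On their brightest probes gavage cisplatin replicate 2 was the highest of its group in all 4. On the other Kcnj1 probe gavage cisplatin replicate 1 was the highest, at 0.393 against 0.324 in replicate 2. Intravenous cisplatin replicate 3 was the highest and replicate 1 the lowest of its group in all 4. Over the 32 tested genes of the 3 segment lists, gavage replicate 2 was the highest of its group in 22 and replicate 3 the lowest in 22. Intravenous replicate 3 was the highest in 25 and replicate 1 the lowest in 23. The share of all features with these orders was not computed, so whether they are particular to these genes was not tested. Intravenous cisplatin replicate 3 also had the fewest probes above background of the cisplatin arrays, at 66.2%, and the part of that in its place was not tested.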

How the data were processed

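Total RNA of rat renal cortex was measured on 1-colour Agilent arrays, 1 per animal. Spot values came from the authors' Feature Extraction software by Agilent, version 10.7 in the submitters' processing notes and 10.7.1.1 in the files' own headers. Per the file headers, the deposited processed intensity is background-subtracted and not normalized between arrays. The deposited value table holds the ratio of that intensity to each array's 75th percentile, as checked against the scanner values (column medians 0.109 to 0.121), and served as an alternative. It is a linear ratio with no centring. The software's deposited marks for background, saturation (0 spots) and non-uniform spots were used, and 82 non-uniform spots were left out.

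Here the log2 of the intensity minus that of the 75th percentile was fitted with limma 3.58.1 (R 4.3.3, lmFit and eBayes, two-sided, n = 3 per group, all 12 arrays in 1 fit). The brightest probe by mean stood for a gene, and features entered the test where some group had every array well above background. Probes were named by transcript through RefSeq GRCr8 (28206 named, 33331 unnamed). Precision is limited by how many arrays there are. The labels call the animals biological replicates. The normexp alternative used the median spot signal with the local background and an offset of 50, in place of the planned mean signal, which was not used here. The fit was tested on simulated data. Arrays of the same group correlated at 0.984 to 0.993, and replicate numbers did not pair animals, since deviations of same-numbered animals correlated at -0.11 to 0.06. The 5 genes and all lists were chosen with earlier results of these data known. Genes named are, by rule, the 5 genes, up to 4 per list with the smallest gavage p, those that went against their list, and the 3 nearest in profile. Slc12a1, Slc12a3, Cldn10, Cldn16 and Havcr1 stand outside that rule, as do Cldn14, Cldn19, Wnk4, Kcnj8, Kcnma1, Slc26a4, Rpap1, Ippk and Flacc1. Some list genes enter the counts but are not reported here by name or drawn.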

Additional observations from a re-analysis of the deposited data

How the results depend on the processing

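The falls of Umod, Klk1, Kcnj1 and Bsnd kept their direction and passed in all 92 gavage values over 23 settings (highest limma adjusted p = 0.00201) and all 92 intravenous values (highest 0.0205). Several of these settings could not move a change, only its p-value: leaving out an array of the other experiment, and the replicate block. The deposited values are the same ratio as the one fitted here. The slide as a fixed block is not counted, since it rests on 1 cisplatin animal with gavage and gives no intravenous value. The replicate block joined the same-numbered water and cisplatin animal of an experiment, so by design the changes stayed as they were and only the spread could differ. With it no call of these 4 genes changed, and the count of differences between the experiments' effects was 0.

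That count, 382, was also 0 with quantile normalization, with spike-in scaling and without a filter. It was 593 both with the stricter filter and with the slide as a random block. Without 1 array it ran from 0 to 2445. The count of features that differed between water groups, 0, was 8 with normexp, 4 with the stricter filter, and 0 to 1096 without 1 array. The slide as a fixed block is left out here too, since only gavage cisplatin arrays, 1 of them on slide 1, link the slides of the water groups. Differences between the experiments' effects without 1 array ran from 1.46 to 4.68 for Umod, 0.87 to 1.44 for Klk1, -0.00070 to 0.37 for Kcnj1 and -0.084 to 0.35 for Bsnd. With spike-in scaling, Cab39l turned to 0.086 with intravenous cisplatin. The causes were not tested. By the correlation of deviations over the 6 cisplatin arrays, other genes were nearest: Rpap1 for Umod, Ippk for Klk1 and Flacc1 for Bsnd.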
